A study of Rattus norvegicus with 9 samples.

Results

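The genes described here are 10 regulators of mitochondrial biogenesis in rat gastrocnemius muscle, namely the coactivators Ppargc1a, Ppargc1b and Perm1, the nuclear receptors Esrra, Esrrg, Ppara and Ppard, the transcription factors Nrf1 and Gabpa, and the mitochondrial DNA factor Tfam. They were found by NCBI rat gene ID and are 10 of the 13752 gene IDs listed in at least 1 library, and all 10 were measured in all 9 libraries. Their gene IDs are 83516 for Ppargc1a, 291567 for Ppargc1b, 313776 for Perm1, 293701 for Esrra, 360896 for Esrrg, 25747 for Ppara, 25682 for Ppard, 312195 for Nrf1, 363735 for Gabpa and 83474 for Tfam. The gastrocnemius is a large, mostly fast-twitch calf muscle supplied by the sciatic nerve. The 9 mRNA libraries came from male rats aged 8 weeks in 3 groups of 3. DN-SM rats had a sciatic nerve injury and received electrical stimulation of the limb each day for 4 weeks from the day of surgery, through surface electrodes at 25 V, 1 mA and 2 Hz with a pulse setting of 300 ms. DN rats had the nerve injury and no current, and SHAM rats had a sham operation and no current. Rats of the DN and SHAM groups were also anaesthetised with pentobarbital, shaved and fitted with electrodes, so these steps were shared by all 3 groups. All rats were on a light and dark cycle with standard chow, and heel lifting was seen during stimulation. The labels name no strain, do not say how the nerve was injured or at what time of day muscle was taken, and do not state that the 3 libraries of a group came from 3 animals, so p-values measure the spread between libraries, which may be technical.

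Mitochondrial biogenesis is the making of new mitochondrial mass, which needs matched expression of nuclear and mitochondrial genes. PGC-1 alpha, the product of Ppargc1a, binds no DNA itself. It docks on receptors such as ERR alpha and the PPARs and on NRF-1 and GABP. These factors occupy the promoters of respiratory chain and fatty acid oxidation genes. Through them PGC-1 alpha raises TFAM, the protein that packages mitochondrial DNA and helps to start its transcription. In skeletal muscle the pathway responds to contractile activity through calcium signals, calcineurin, CaMK, AMPK and p38 MAPK, and loss of nerve supply is known to lower it.

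Promoter sequences are given for 4 of the genes with letters that match motifs of this circuit: Ppargc1a, Perm1, Gabpa and its target Tfam. The sequences are 300-base windows from 250 bases before to 50 bases after the annotated start. They are RefSeq sequences of the GRCr8 build, 5′ to 3′, and capitals mark the motif. Windows were found for 9 of the 10 genes, and those of Ppargc1b, Esrra, Esrrg and Nrf1 held none of the motifs searched. The capitals are a cAMP response element in Ppargc1a, and an ETS motif of the kind GABP binds in Gabpa (opposite strand) and Tfam. In Perm1 they are a loose MEF2-like pattern and then an ERR half-site core (read on the opposite strand).
Ppargc1a promoter, GRCr8 chr14:63634058-63634357, plus strand: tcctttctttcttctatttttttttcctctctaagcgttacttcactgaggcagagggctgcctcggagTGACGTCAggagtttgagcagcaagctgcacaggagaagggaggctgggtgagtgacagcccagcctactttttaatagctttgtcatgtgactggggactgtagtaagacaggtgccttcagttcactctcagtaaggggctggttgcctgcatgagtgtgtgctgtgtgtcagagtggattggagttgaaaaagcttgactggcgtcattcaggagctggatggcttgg
Perm1 promoter, GRCr8 chr5:172081999-172082298, plus strand: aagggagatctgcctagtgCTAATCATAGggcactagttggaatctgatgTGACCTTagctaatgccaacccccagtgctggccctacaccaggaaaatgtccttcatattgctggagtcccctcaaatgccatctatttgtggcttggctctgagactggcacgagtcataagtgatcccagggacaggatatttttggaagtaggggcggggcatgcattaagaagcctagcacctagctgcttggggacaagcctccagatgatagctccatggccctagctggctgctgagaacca
Gabpa promoter, GRCr8 chr11:37375014-37375313, plus strand: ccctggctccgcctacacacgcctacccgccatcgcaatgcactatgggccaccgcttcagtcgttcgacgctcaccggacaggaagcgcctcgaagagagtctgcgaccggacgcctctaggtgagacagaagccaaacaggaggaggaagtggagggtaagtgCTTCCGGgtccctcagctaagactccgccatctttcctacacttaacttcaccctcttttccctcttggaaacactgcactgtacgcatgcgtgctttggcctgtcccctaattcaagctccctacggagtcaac
Tfam promoter, GRCr8 chr20:17355123-17355422, plus strand: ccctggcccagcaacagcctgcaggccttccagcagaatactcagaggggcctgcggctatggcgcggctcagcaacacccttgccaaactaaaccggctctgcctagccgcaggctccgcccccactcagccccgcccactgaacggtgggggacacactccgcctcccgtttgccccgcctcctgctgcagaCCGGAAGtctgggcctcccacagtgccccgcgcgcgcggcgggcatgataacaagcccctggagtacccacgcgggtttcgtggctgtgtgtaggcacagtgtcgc

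The cAMP response element TGACGTCA began at position -181 from the start of Ppargc1a and was held by 1.83% of the 33469 rat promoters of the same length. In Perm1 the loose MEF2-like pattern, CTA and TAG with any 4 bases between, began at -231 and the half-site core AAGGTCA at -200. These occurred in 3.84% and 4.61% of all promoters. The MEF2 consensus has only A or T at those 4 bases, and the match in Perm1, CTAATCATAG, holds a C there. The ETS motif CCGGAAG began at -85 in Gabpa and at -56 in Tfam and occurred in 8.75% of promoters. The NRF-1 motif, GCGCA and GCGC with any base between, present in 4.25% of promoters, was found in Ppara at -100. The full ERR element TCAAGGTCA, which contains the core AAGGTCA and occurs in 0.433% of promoters, and the E-box CACGTG of the clock factors, in 6.42%, were not found in any of the 12 windows of these genes. Both strands were searched, and a match is a description of the letters and not of a bound site.

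The libraries held between 7926445 and 8893843 expected counts, and 10129 genes, including all 10 regulators, passed a filter on low counts and were tested. SHAM replicate 2 stood apart in its myosin transcripts. Myh4, the fastest myosin heavy chain, made up 75.2% of the summed FPKM of 4 adult myosin genes there, against 26.9% and 33.9% in the other SHAM libraries. That share was 34.1%, 30.2% and 22.9% in the DN-SM libraries and 17.8%, 15.8% and 14.4% in the DN libraries. Some results that lean on 1 SHAM library are given with and without it.

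The regulators fell into 3 tiers of abundance. On the FPKM scale, which corrects for transcript length and depth, Perm1 and Esrra averaged 70.8 and 70.2 over the 9 libraries and made up 35.5% and 35.2% of the summed level of the 10 genes. Ppard averaged 23.4 FPKM and Tfam 22.9 FPKM. The other 6 were scarce: Nrf1 averaged 4.43, Ppargc1b 2.34, Gabpa 1.86, Ppara 1.51, Ppargc1a 1.31 and Esrrg 0.828 FPKM. Perm1 stood at the percentile 94.3 of listed genes by mean FPKM, Tfam at 85.3 and Ppargc1a at 39.2. Neighbours in this order overlapped in their ranges over the libraries except at 2 steps, between Esrra and Ppard (3.0-fold) and between Tfam and Nrf1 (5.18-fold). Within receptor pairs, Esrra exceeded Esrrg by 45.3 to 150-fold and Ppard exceeded Ppara by 11.2 to 19.2-fold in every library, so ERR alpha and PPAR delta were the dominant transcripts of their families among those listed here.

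**Figure D1:**
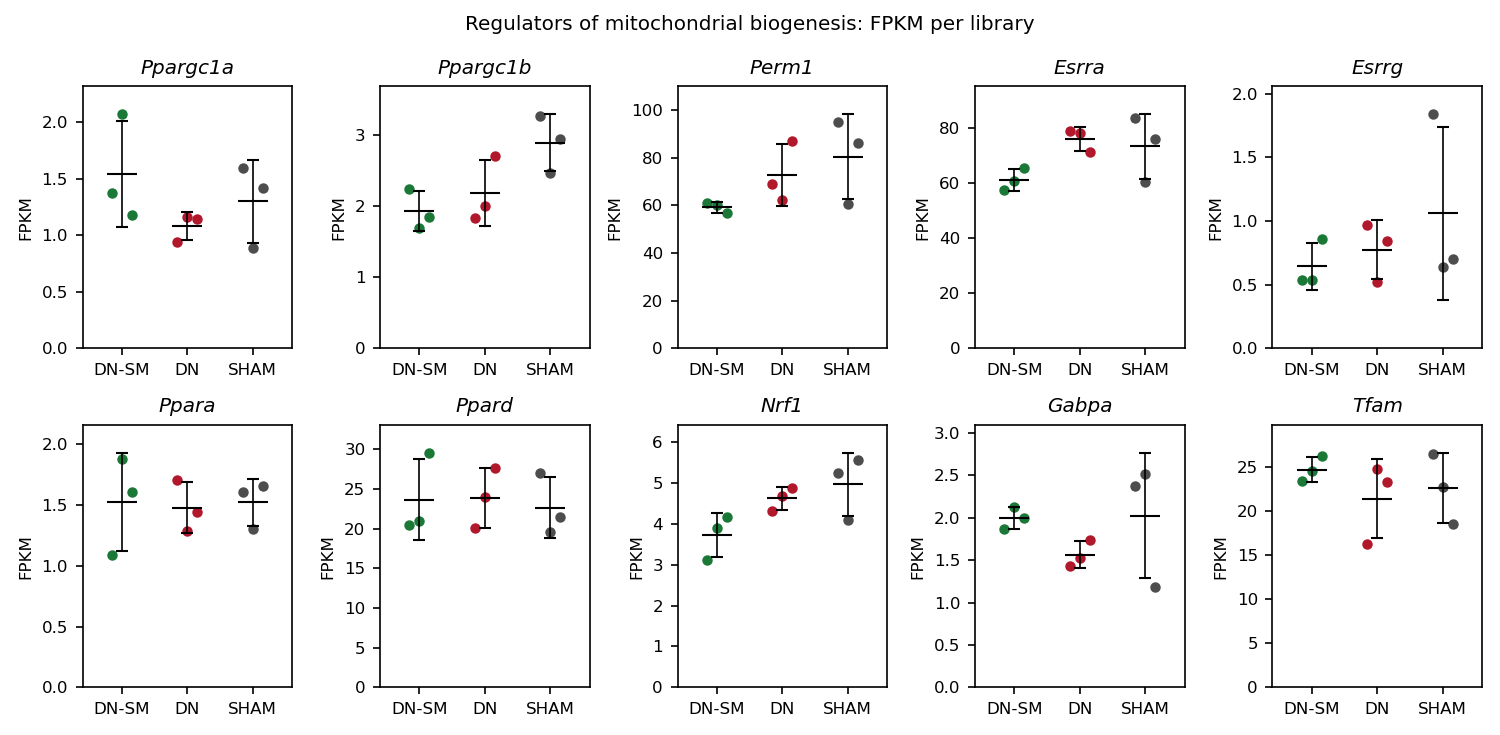
FPKM of each of the 10 regulators (one panel per gene) in the 3 DN-SM, 3 DN and 3 SHAM libraries; points are libraries and bars are group means with SD. Perm1 and Esrra sit highest, with means of 70.8 and 70.2 FPKM over the 9 libraries, and Ppargc1b is the gene whose DN-SM libraries all lie below its SHAM libraries.

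Ppargc1a, the coactivator that links contraction to mitochondrial genes, had the largest fitted difference between stimulated and unstimulated denervated muscle among the 10 regulators, but its interval included 0. It had 1.37, 2.07 and 1.18 FPKM in the DN-SM libraries, 0.94, 1.16 and 1.14 FPKM in the DN libraries, and 1.59, 0.89 and 1.42 FPKM in the SHAM libraries. All 3 DN-SM values lay above the 3 DN values, narrowly for DN-SM replicate 3. SHAM replicate 2 lay below every DN value, and SHAM replicates 1 and 3 lay above every DN value and within the DN-SM range. The log2 difference of DN-SM from DN was 0.61 (SE 0.289, 95% interval -0.02 to 1.24; edgeR adjusted p = 0.290), that of DN from SHAM was -0.33 (SE 0.294, interval -0.96 to 0.31; adjusted p = 0.558), and that of DN-SM from SHAM was 0.28 (SE 0.284; adjusted p = 0.719). Leaving out 1 library at a time, the difference of DN from SHAM ran from -0.51 to -0.23. That of DN-SM from SHAM ran from 0.01 to 0.44, and neither was called in any of these fits. Only 19 to 44 expected counts per library lay behind the values of Ppargc1a.

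Ppargc1b encodes PGC-1 beta, a related coactivator that also raises mitochondrial genes. It had 2.25, 1.70 and 1.85 FPKM in DN-SM libraries, 1.84, 2.01 and 2.71 FPKM in DN libraries, and 3.27, 2.47 and 2.95 FPKM in SHAM libraries. Every DN-SM value was below every SHAM value, and 1 DN library, replicate 3, reached into the SHAM range. The log2 difference of DN-SM from SHAM was -0.55 (SE 0.196, interval -0.98 to -0.13; edgeR adjusted p = 0.243) and that of DN from SHAM was -0.48 (SE 0.194, interval -0.90 to -0.06; adjusted p = 0.171). Neither passed the adjusted threshold of 0.05. Stimulated and unstimulated denervated muscle differed by -0.07 (SE 0.20, interval -0.51 to 0.36; adjusted p = 0.870).

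Perm1, a muscle regulator induced by PGC-1 and ERR proteins, had 61.12, 60.07 and 56.60 FPKM in DN-SM libraries, 68.95, 62.09 and 87.10 FPKM in DN libraries, and 94.82, 60.42 and 86.01 FPKM in SHAM libraries. The DN-SM libraries were close together below the DN libraries, and SHAM replicate 2 lay within the DN-SM range. The log2 difference of DN-SM from SHAM was -0.41 (SE 0.138, interval -0.71 to -0.11; edgeR adjusted p = 0.217). The differences of DN-SM from DN and of DN from SHAM were -0.19 (SE 0.138; adjusted p = 0.471) and -0.21 (SE 0.138; adjusted p = 0.391).

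Among the receptors, Esrra, the ERR alpha gene and a main partner of PGC-1 alpha, differed little between DN and SHAM. It had 57.49, 60.81 and 65.40 FPKM in DN-SM, 78.87, 78.04 and 71.10 FPKM in DN, and 83.44, 60.46 and 75.89 FPKM in SHAM libraries. On the FPKM scale the DN-SM libraries lay below the DN libraries without overlap, while DN lay within the SHAM range. DN differed from SHAM by -0.01 on the log2 scale with an interval of -0.26 to 0.24 (SE 0.116; edgeR adjusted p = 0.976), and DN-SM differed from DN by -0.22 (SE 0.116, interval -0.47 to 0.03; adjusted p = 0.337) and from SHAM by -0.23 (SE 0.116; adjusted p = 0.437). Esrrg, the related receptor enriched in oxidative fibres, had 0.54, 0.54 and 0.86 FPKM in DN-SM, 0.97, 0.52 and 0.84 FPKM in DN, and 1.84, 0.64 and 0.70 FPKM in SHAM libraries. SHAM replicate 1 was alone at the top and the rest of the 3 groups mixed. The DN to SHAM difference was -0.48 with an interval of -1.32 to 0.37 (SE 0.389; edgeR adjusted p = 0.510), and without SHAM replicate 1 it was 0.06. DN-SM differed from SHAM by -0.65 (SE 0.399, interval -1.51 to 0.22; edgeR adjusted p = 0.529), and by -0.11 without SHAM replicate 1. DN-SM differed from DN by -0.17 (SE 0.410; edgeR adjusted p = 0.852).

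Ppara, the PPAR alpha gene of fatty acid oxidation, had 1.09, 1.88 and 1.61 FPKM in DN-SM, 1.71, 1.29 and 1.44 FPKM in DN, and 1.61, 1.30 and 1.66 FPKM in SHAM libraries, and the groups overlapped throughout. Ppard, the PPAR delta gene and the main PPAR of skeletal muscle, had 20.42, 20.98 and 29.49 FPKM in DN-SM, 20.08, 23.98 and 27.62 FPKM in DN, and 26.97, 19.52 and 21.44 FPKM in SHAM libraries. The 3 groups shared 1 range. Its 3 log2 differences were 0.08 (interval -0.23 to 0.40) for DN-SM from DN, 0.01 (interval -0.31 to 0.33) for DN from SHAM and 0.09 (interval -0.23 to 0.41) for DN-SM from SHAM, with edgeR adjusted p = 0.791, 0.982 and 0.843. For Ppara the differences were 0.13 (SE 0.276; adjusted p = 0.825) for DN-SM from DN, -0.11 (SE 0.275; adjusted p = 0.851) for DN from SHAM, and 0.02 (SE 0.275; adjusted p = 0.985) for DN-SM from SHAM.

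Nrf1 encodes nuclear respiratory factor 1, which binds promoters of respiratory chain subunits and of Tfam. It had 3.11, 3.89 and 4.16 FPKM in DN-SM, 4.31, 4.68 and 4.86 FPKM in DN, and 5.23, 4.10 and 5.55 FPKM in SHAM libraries. DN-SM lay below DN in every library, and SHAM replicate 2 fell inside the DN-SM range. The log2 difference of DN-SM from SHAM was -0.39 (SE 0.185, interval -0.79 to 0.01; edgeR adjusted p = 0.407), that of DN-SM from DN was -0.22 (SE 0.186; adjusted p = 0.556), and that of DN from SHAM was -0.18 (SE 0.182; adjusted p = 0.615).

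Gabpa encodes the DNA-binding subunit of GABP, also called nuclear respiratory factor 2. Its levels were 1.87, 2.13 and 2.00 FPKM in DN-SM, 1.43, 1.53 and 1.74 FPKM in DN, and 2.38, 2.52 and 1.18 FPKM in SHAM libraries. DN-SM exceeded DN in every library, and DN lay below 2 of the SHAM libraries and above SHAM replicate 3. The log2 difference of DN-SM from DN was 0.45 (SE 0.246, interval -0.09 to 0.98; edgeR adjusted p = 0.358) and that of DN from SHAM was -0.43 (SE 0.246, interval -0.97 to 0.10; adjusted p = 0.322). Without SHAM replicate 3, Gabpa was called lower in DN than in SHAM, at -0.70 with adjusted p = 0.0250, and 7.29% of genes were called lower in that fit, against 1.70% with all libraries. The SD of its log2 CPM (counts scaled to library size) was 0.079 in DN-SM, 0.064 in DN and 0.578 in SHAM.

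Tfam had 23.41, 24.53 and 26.27 FPKM in DN-SM, 16.31, 24.76 and 23.29 FPKM in DN, and 26.53, 22.79 and 18.56 FPKM in SHAM libraries. DN replicate 1 was the lowest of the 9 and SHAM replicate 1 the highest. The log2 difference of DN-SM from DN was 0.31 (SE 0.154, interval -0.03 to 0.64; edgeR adjusted p = 0.318), that of DN from SHAM was -0.15 (SE 0.155; adjusted p = 0.618), and that of DN-SM from SHAM was 0.16 (SE 0.154; adjusted p = 0.713).

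**Figure D2:**
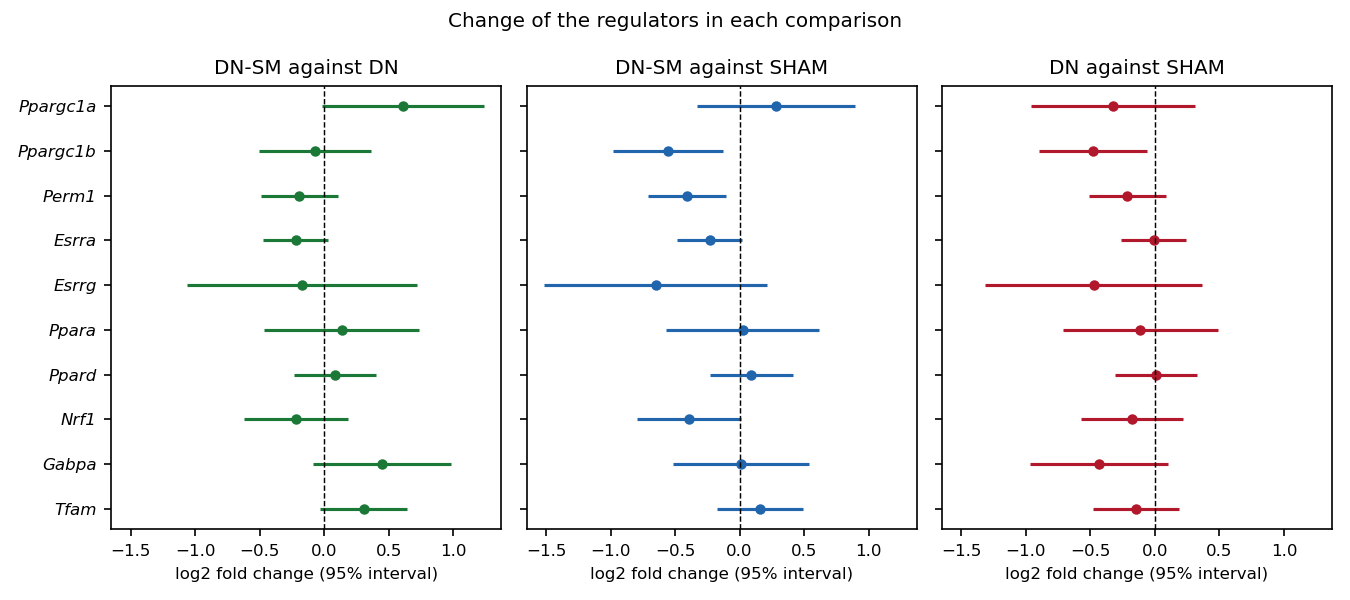
Fitted log2 differences of the 10 regulators for DN-SM from DN, DN-SM from SHAM and DN from SHAM (points, x axis in log2 units) with 95% intervals (bars). No adjusted p is under 0.05; Ppargc1a has the highest value in DN-SM from DN, 0.61, and the interval of Ppargc1b for DN from SHAM, -0.90 to -0.06, lies below 0.

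The comparison of DN-SM with DN asks what daily stimulation did to denervated muscle. No regulator was called by edgeR in it, where 0.00987% of all 10129 genes were called, and none had an unadjusted p under 0.05, against 17.6% of genes. The fitted differences ran from -0.22 for Esrra to 0.61 for Ppargc1a, with 5 above and 5 below 0 and a median of 0.01, beside -0.01 over all genes. In log2 CPM the DN-SM and DN libraries did not overlap for 4 regulators, with Ppargc1a, Gabpa and Tfam higher and Nrf1 lower in DN-SM, and 30.3% of all genes did not overlap either, 17.0% higher and 13.3% lower in DN-SM. On the FPKM scale the regulators without overlap were Ppargc1a and Gabpa, higher in DN-SM, and Perm1, Esrra and Nrf1, lower in DN-SM. On that scale 32.7% of all genes did not overlap, 11.4% higher and 21.3% lower in DN-SM. With 1 added to each FPKM value, the median log2 difference was -0.09 over the genes that passed a filter on low FPKM. Without that filter it was -0.04. DESeq2 and limma called none of the 10, nor did a fit of the DN-SM and DN libraries alone, which called 592 of 9934 genes higher and 124 lower; there Ppargc1a had adjusted p = 0.198, Gabpa 0.0996 and Tfam 0.203.

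DN against SHAM asks what nerve injury did. Here too edgeR called none of the 10 regulators, against 4.26% of all genes, and 1 of 10, Ppargc1b, had an unadjusted p under 0.05, against 22.3% of genes. The fitted differences of 9 regulators were below 0, with a median of -0.19, and over all genes the median was -0.01 with 51.3% below 0. DESeq2 and limma called none. Ppargc1b was the one regulator whose libraries did not overlap in log2 CPM, lower in DN, where 24.3% of all genes did not overlap, 10.1% being lower. DN-SM against SHAM sets stimulated denervated muscle beside sham muscle and shares its SHAM libraries with the last comparison. edgeR, DESeq2 and limma called none of the 10 there, and edgeR called 0.839% of genes. Perm1 and Ppargc1b had unadjusted p-values under 0.05, as did 12.8% of genes. Ppargc1b, Perm1 and Nrf1 lay below SHAM without overlap in log2 CPM, as 8.98% of genes did (18.3% were without overlap in either direction), and the median difference of the 10 was -0.11, beside 0.02 over all genes.

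Precision differed widely between the regulators. Perm1, with 2348 counts per library on average, had a counting error of 2.06%, Esrra 2.77% and Ppard 3.91%. Tfam followed at 5.95% with 283 counts, while Gabpa, Nrf1 and Ppargc1b had 11.4% to 12.6%. For Ppargc1a, Ppara and Esrrg the average was 27.2, 26.0 and 22.3 counts and the counting error 19.2%, 19.6% and 21.2%. These figures cover counting error only; the intervals above also hold the spread between libraries.

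**Figure D3:**
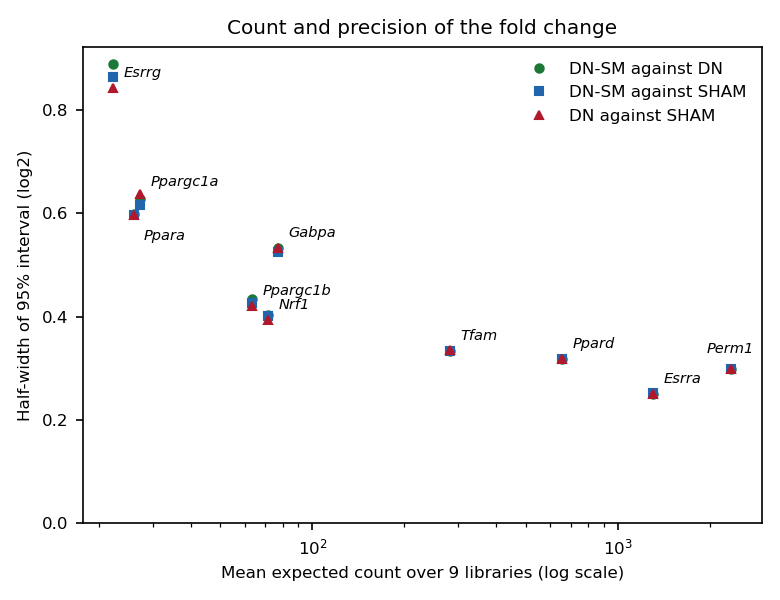
Mean expected count per library of each regulator (x axis, log scale) against the half-width of the 95% interval of its log2 difference (y axis), with 1 symbol for each of the 3 comparisons. The half-width is smallest for Esrra and largest for Esrrg, which had 22.3 counts on average.

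The spread within groups differed by gene. The SD of log2 CPM was largest in SHAM for 3 regulators (Perm1, Esrrg and Gabpa), in DN-SM for 5 (Ppargc1a, Ppargc1b, Ppara, Ppard and Nrf1) and in DN for 2 (Esrra and Tfam). Within SHAM, on the log2 CPM scale, replicate 2 was lowest for 8 regulators and replicate 3 for Gabpa and Tfam, and 35.1% of all genes were lowest in replicate 2. The median SD of log2 CPM over all genes was 0.171 in DN-SM, 0.187 in DN and 0.251 in SHAM. With SHAM replicate 2 left out, none of the 10 was called in any comparison, and the median of the 10 for DN from SHAM was -0.22.

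Several genes around the regulators were lower in injured muscle. In the PPAR targets of fatty acid use, 2 of 20 tested genes fell and none rose in DN relative to SHAM, against a background of 1.7% of genes called lower, and the same 2 fell in DN-SM relative to SHAM, where 0.425% of genes were called lower. Pdk4, the kinase that holds back glucose oxidation, had 20.63, 42.67 and 34.09 FPKM in DN-SM, 29.07, 26.33 and 30.97 FPKM in DN, and 70.95, 61.81 and 80.19 FPKM in SHAM libraries. Every denervated library lay below every SHAM library. It fell by 1.38 on the log2 scale in DN relative to SHAM (SE 0.213; edgeR adjusted p = 0.0092) and by 1.11 in DN-SM relative to SHAM (SE 0.212; adjusted p = 0.0414). Ucp3, a mitochondrial carrier protein that rises with fatty acid supply, had 7.99, 14.12 and 6.36 FPKM in DN-SM, 11.88, 18.42 and 13.41 FPKM in DN, and 34.55, 34.89 and 63.75 FPKM in SHAM libraries. It too was lower in every denervated library, falling by 1.70 in DN (SE 0.358; adjusted p = 0.0379) and by 2.22 in DN-SM relative to SHAM (SE 0.368; adjusted p = 0.0390). The median of the 20 targets was 0.06 in DN relative to SHAM, beside -0.01 over all genes, and in DN-SM it was 0.10 relative to DN and 0.16 relative to SHAM. Leaving out 1 library ended the Pdk4 call in DN only without DN replicate 3 (adjusted p = 0.0526), and ended its call in DN-SM without any 1 of 8 libraries, all but DN-SM replicate 2 (up to 0.114). The Ucp3 call in DN was lost without DN replicate 1, 2 or 3, DN-SM replicate 1 or SHAM replicate 2 (0.0595 to 0.148), and in DN-SM without any of the DN libraries, DN-SM replicate 1 or 3, or SHAM replicate 2 or 3 (0.0508 to 0.160).

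**Figure D4:**
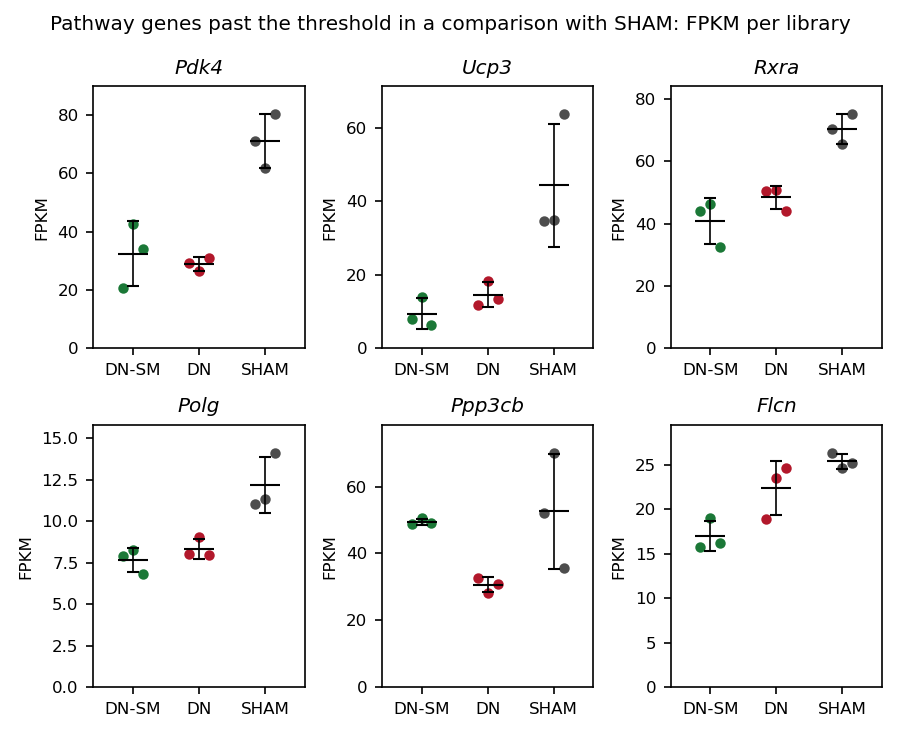
FPKM of the 6 pathway genes called against SHAM (Pdk4, Ucp3, Rxra, Polg, Ppp3cb and Flcn) in the DN-SM, DN and SHAM libraries; points are libraries and bars are group means with SD. Pdk4 and Ucp3 lie lower in all 6 DN-SM and DN libraries than in every SHAM library.

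Among the 28 tested factors and co-regulators that act with or on the PGC-1 genes, 1 fell in DN and in DN-SM relative to SHAM and none rose. Of all genes 1.7% were called lower in DN and 0.425% in DN-SM. Rxra, the retinoid X receptor that pairs with the PPARs on DNA, had 43.93, 46.21 and 32.35 FPKM in DN-SM, 50.29, 50.72 and 44.08 FPKM in DN, and 70.40, 65.34 and 74.94 FPKM in SHAM libraries. It was lower by 0.61 on the log2 scale in DN (log2 difference -0.61, SE 0.149; edgeR adjusted p = 0.0424) and by 0.76 in DN-SM (log2 difference -0.76, SE 0.15; adjusted p = 0.0414), with SHAM as the baseline. The 2 contrasts share the SHAM libraries. Each call was lost when any of 7 libraries was left out, with adjusted p up to 0.163 for DN and 0.114 for DN-SM; the DN call held without DN-SM replicate 3 or SHAM replicate 3, and the DN-SM call held without DN replicate 3 or SHAM replicate 2. The list medians were -0.01 for DN-SM from DN, -0.18 for DN-SM from SHAM and -0.19 for DN from SHAM.

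In the list of genes that copy and transcribe mitochondrial DNA, where Tfam acts, 1 of 18, Polg, fell in DN and none rose, where 1.7% of all genes were called lower. Polg, the catalytic subunit of the mitochondrial DNA polymerase, had 7.89, 8.27 and 6.83 FPKM in DN-SM, 8.00, 9.03 and 7.96 FPKM in DN, and 11.05, 11.32 and 14.10 FPKM in SHAM libraries. No denervated library reached the SHAM range. The difference of DN from SHAM was -0.63 (SE 0.154; edgeR adjusted p = 0.0429), and that of DN-SM from SHAM was -0.65 (adjusted p = 0.0831). The DN call held without SHAM replicate 1 or DN-SM replicate 3 and was lost without any of the other 7 libraries (up to 0.163). The list medians were 0.13 for DN-SM from DN, 0.10 for DN-SM from SHAM and -0.12 for DN from SHAM. None of the 29 tested ERR and NRF targets of respiration was called in any of the 3 comparisons by edgeR on the 9 libraries, and their median was -0.02 for DN-SM from DN, 0.13 for DN-SM from SHAM and 0.07 for DN from SHAM. The 15 tested genes of mitochondrial fusion, fission and removal had none called in that fit either, with medians of 0.27, 0.10 and -0.14 in the same order. In DN from SHAM 13 of the 15 differences were below 0, where 51.3% of all genes were. DESeq2, limma-voom with sample weights and edgeR without the filter each called 2 of the 15 lower there. Of all genes they called there, 45.8%, 53.3% and 53.9% were higher in DN, in that order. Without SHAM replicate 3, 4 of these 15 were lower in DN than in SHAM, where 7.29% of all genes were.

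**Figure D5:**
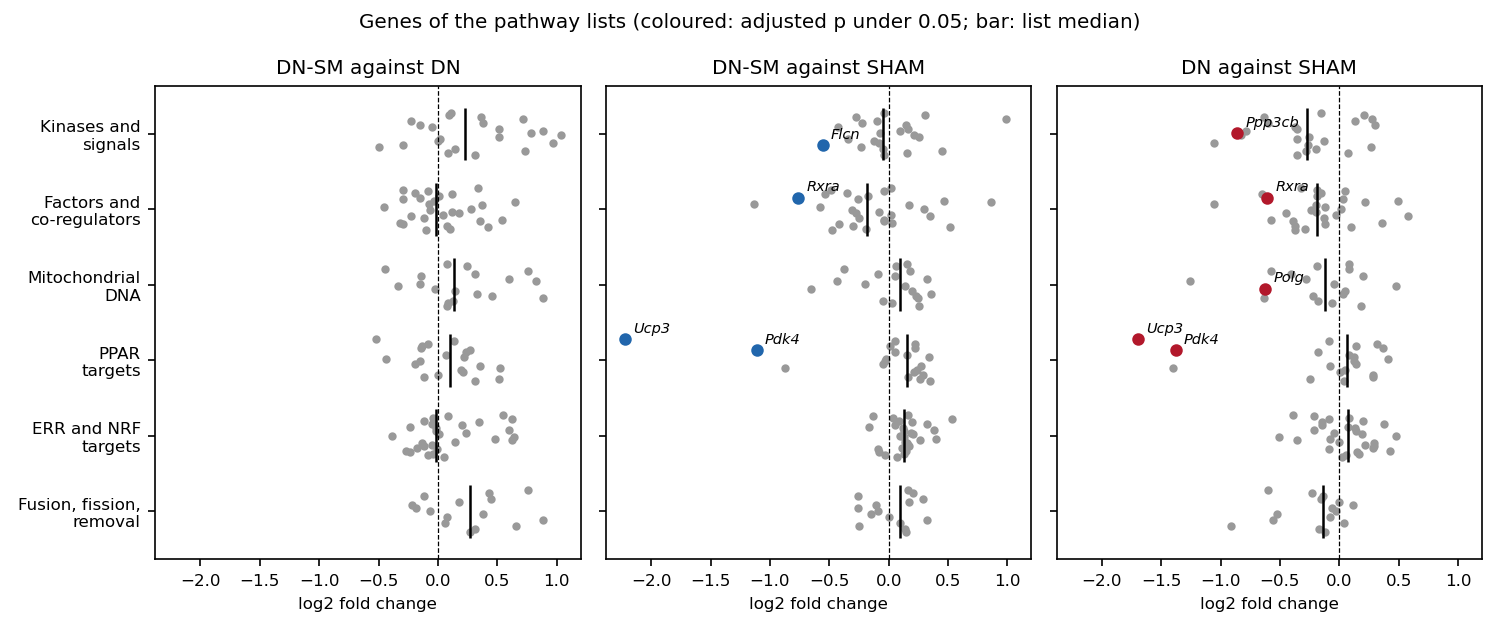
Log2 differences of the genes of each pathway list (points) with the list median (bar) in DN-SM from DN, DN-SM from SHAM and DN from SHAM; large coloured points have an adjusted p under 0.05. The medians of the 29 ERR and NRF targets are -0.02, 0.13 and 0.07, and Pdk4 and Ucp3 are the called PPAR targets.

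Of the 22 kinases and signals tested upstream of PGC-1 alpha, the genes of calcineurin, the calcium-activated phosphatase of active muscle, were higher in stimulated than in unstimulated denervated muscle when those libraries were fitted alone. Ppp3ca, a catalytic subunit, had 17.82, 15.01 and 16.40 FPKM in DN-SM, 9.62, 8.18 and 7.72 FPKM in DN, and 12.27, 20.62 and 9.79 FPKM in SHAM libraries. Ppp3cb, another catalytic subunit, had 48.72, 50.46 and 49.24 FPKM in DN-SM, 32.74, 28.31 and 31.01 FPKM in DN, and 52.21, 69.98 and 35.73 FPKM in SHAM libraries. Ppp3r1, the regulatory subunit, had 53.66, 58.74 and 48.46 FPKM in DN-SM, 32.33, 30.49 and 30.36 FPKM in DN, and 45.09, 77.32 and 28.19 FPKM in SHAM libraries. All DN-SM values exceeded all DN values for the 3 genes, as they did for 11.4% of all genes on the FPKM scale. Among SHAM libraries replicate 2, where Myh4 made up 75.2% of the summed FPKM of adult myosin genes, was highest and replicate 3 lowest. The part of fibre composition in these values was not tested. In the fit of all 9 libraries none passed in DN-SM against DN (Ppp3ca 1.04 and Ppp3cb 0.78, each with edgeR adjusted p = 0.144; Ppp3r1 0.88, adjusted p = 0.222). When only the DN-SM and DN libraries were fitted, all 3 rose in DN-SM (Ppp3ca adjusted p = 0.00212, Ppp3cb 0.00166, Ppp3r1 0.00125). In DN relative to SHAM, Ppp3cb fell by 0.86 (SE 0.208; adjusted p = 0.0441), the 1 call of 22 tested genes in this list, where 1.7% of all genes were called lower; it held without SHAM replicate 3 and was lost without any of the other 8 libraries (up to 0.155). In DN-SM relative to SHAM, where 0.425% of all genes were called lower, the 1 call of 22 was Flcn, the folliculin gene of nutrient sensing, at -0.56 (SE 0.117; adjusted p = 0.0498), and leaving out any of the 9 libraries ended it (0.0589 to 0.201). Without SHAM replicate 3, 5 of the 22 were lower in DN than in SHAM, where 7.29% of all genes were, and without SHAM replicate 2 none of the 22 was, where 0.621% were. The list medians were 0.23 for DN-SM from DN, -0.05 for DN-SM from SHAM and -0.27 for DN from SHAM.

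In the same fit of DN-SM and DN alone, 5.96% of 9934 genes were called higher and 1.25% lower. The upstream list had 5 of 22 genes higher, the calcineurin genes with Nampt, which makes NAD+, and the CaM kinase gene Camk2d. The ERR and NRF targets had 4 of 29 higher, the respiratory and citrate cycle genes Idh3a (0.64), Uqcrc2 (0.63), Ndufs1 (0.60) and Fh (0.49), with edgeR adjusted p = 0.00719, 0.00854, 0.0114 and 0.0122. The fusion, fission and removal list had 2 of 15 higher, Fundc1, a receptor for mitochondrial removal (0.89; adjusted p = 0.00864), and Dnm1l, which divides mitochondria (0.66; adjusted p = 0.0487). Among mitochondrial DNA genes 1 of 17 was higher, Tfb2m, a partner of TFAM at mitochondrial promoters (0.76; adjusted p = 0.00849), and among factors and co-regulators 1 of 26, Nrip1, a corepressor of the same receptors (0.65; adjusted p = 0.0366). No PPAR target of 20 was called, none of these lists had a gene called lower, and the 10 regulators had none called in either direction. With all 9 libraries in 1 fit, edgeR called none of these genes. On the same 9 libraries DESeq2 called 3 upstream genes, 4 ERR and NRF targets and 1 fusion, fission and removal gene higher in DN-SM. There limma-voom with sample weights called 5, 4 and 1 in those lists and 1 mitochondrial DNA gene. Both also called more genes in all than edgeR did on the 9 libraries (totals are given below). Of all their calls 78.6% with DESeq2 and 76.9% with limma-voom were higher in DN-SM.

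Markers of some other cell types, and clock genes, differed between the groups. The summed FPKM of 8 endothelial markers was 151.7 to 175.8 in DN-SM, 174.6 to 223.2 in DN and 113.8 to 134.7 in SHAM libraries. Of the 8, 4 were called higher in DN than in SHAM, where 2.57% of genes were. The fitted difference was below 0 for 1 of the 8 in DN from SHAM and for 2 in DN-SM from SHAM. In DN-SM from DN it was below 0 for all 8, with none called. In DN-SM against SHAM 1 of 8, Cdh5, was called higher (0.59; edgeR adjusted p = 0.0448), against 0.415% of genes, and the call was lost without any 1 of 6 libraries, all but DN replicates 1 and 3 and SHAM replicate 2 (up to 0.191); none of the Schwann cell, adipocyte, macrophage, fibroblast or muscle markers was called there. For 9 Schwann cell markers the sum was 87.16 to 188.9 in DN-SM, 151.1 to 330.8 in DN and 72.13 to 78.07 in SHAM, with 3 of 9 called higher in DN. The adipocyte sum was 98.03 to 133.9 in DN-SM, 108.2 to 151.1 in DN and 74.77 to 88.85 in SHAM, with 2 of 6 tested markers called higher in DN, and the defining adipocyte genes Lep and Pck1 had no row in at least 1 library and entered the sum there as 0. Macrophage sums overlapped (65.40 to 95.15 in DN-SM, 69.86 to 112 in DN, 59.22 to 107.9 in SHAM), as did fibroblast sums (280.7 to 406.1 in DN-SM, 406.1 to 595 in DN, 272.3 to 673.5 in SHAM). Of 7 fibroblast markers 1 was called higher in DN than in SHAM. In that comparison 3 of the 7 had differences above 0 and 4 below, with a median of -0.12. Skeletal muscle markers summed to 179300 to 180800 in DN-SM, 168600 to 182700 in DN and 147400 to 163400 in SHAM, with none of 11 called. Each of the 10 calls in DN was lost without at least 1 library, 1 in the case of Cdh5 and Pecam1 (DN replicate 3, adjusted p = 0.0736 and 0.0612) and 8 in the case of Thy1. In bulk tissue, fewer cells of a type and less RNA per cell cannot be told apart, and the part of these cell types in the values above was not tested.

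Clock genes, whose levels follow time of day, also differed from SHAM. In DN 3 of 14 rose and 2 fell, where 2.57% of all genes were called higher and 1.7% lower. In DN-SM 3 rose and 2 fell, where 0.415% of all genes were called higher and 0.425% lower. Per2, a negative arm of the clock, rose by 1.52 on the log2 scale in DN (edgeR adjusted p = 0.00232) and by 2.05 in DN-SM (adjusted p = 8.89e-05), and Bmal1, of the positive arm, fell by 2.49 in DN (adjusted p = 0.00232) and by 2.59 in DN-SM (adjusted p = 0.00144). The calls of Per2 and Bmal1 held in all 24 alternative settings. Of the other clock calls, Ciart held in 24 of 24 settings for DN and in 20 for DN-SM. Dbp held in 22 of 24 for DN and in 15 for DN-SM, and Npas2 in 14 of 22 for DN and in 15 for DN-SM. The part of the clock in the values above was not tested.

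The genes whose pattern over the 9 libraries lay nearest to 3 of the regulators were found by the root mean square difference of centred log2 CPM, among genes of at least 5 FPKM. Nearest to Ppargc1a was Pop4 at 0.175, followed by Mrpl18 at 0.192, C8h15orf61 at 0.206 and Bcl9l at 0.217, where the median over 5401 genes was 0.398 and the own variation of Ppargc1a 0.329. Nearest to Perm1 were Neu1 at 0.093, Slc25a23 at 0.104 and Unc119b and Ece1 at 0.106 each, with a median of 0.295, and nearest to Esrra were Gtf2ird1 at 0.044, Tmem134 at 0.047, Chkb at 0.048 and Spsb3 at 0.059, with a median of 0.248. Perm1 and Esrra were 0.197 apart, so Esrra ranked 515 from Perm1 and Perm1 ranked 1721 from Esrra. The own variation was 0.222 for Perm1 and 0.151 for Esrra, so their distance exceeded that of Esrra. Of the regulators compared with Ppargc1a, Tfam was nearest at 0.323 (rank 570). Ppard, Perm1 and Esrra lay at 0.377, 0.390 and 0.395 (ranks 2015, 2470 and 2623), beyond its own variation. With a counting error of 19.2%, counting noise enters the pattern of Ppargc1a. These values are descriptions over libraries that share depth and group.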

How the data were processed

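RNA from gastrocnemius was sequenced as mRNA libraries on a BGISEQ-500, per the labels' protocols. The deposited tables hold, per gene and library, the authors' RSEM expected counts and FPKM values. HISAT2, RSEM, GATK and build rn6 are named per the submitters' processing notes, without versions. Of 13752 gene IDs, 13649 were named by RefSeq gene ID, 7 by accession and 96 had no symbol. Expected counts were rounded and fitted in edgeR 4.0.16 (R 4.3.3) over 9 libraries with TMM factors, filterByExpr (minimum count 10) and robust quasi-likelihood tests, Benjamini-Hochberg adjusted over 10129 genes at 0.05. DESeq2 1.42.0 and limma 3.58.1 on log2(FPKM + 1) were alternatives. The procedure was tested on simulated data. Levels are given in FPKM, and calls come from the counts. Totals of 7926445 to 8893843 counts bound precision. The regulators and all lists were chosen with earlier results of these data known. Pathway genes named were up to 4 called genes per list and comparison with the smallest p, and the 4 genes of nearest pattern for 3 regulators; other genes, among them those of the 2-group fit, were named after their values were seen.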

Additional observations from a re-analysis of the deposited data

How the results depend on the processing

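Over 24 alternatives 1 regulator was called for DN against SHAM, Gabpa, without SHAM replicate 3, and none in the comparisons that involve DN-SM. Counts of all genes called were less stable. For DN against SHAM (432) they were 758 with DESeq2, 278, 250 and 131 with limma (FPKM plus 1, plus 0.1, unfiltered plus 1), 156 in a fit of those groups alone, 109 and 739 in that fit without SHAM replicate 2 or 3, and 58 to 1183 leaving out 1 library, highest without SHAM replicate 3 and lowest without DN replicate 3. For DN-SM against DN (1) they were 215 with DESeq2, 716 in a fit of those groups alone, 0 with limma at plus 0.1, 603 with voom sample weights, and 0 to 416 leaving out 1 library (339 without SHAM replicate 2, 416 without SHAM replicate 3). For DN-SM against SHAM (85) they were 259 with DESeq2, 47, 43 and 25 with limma as above, 54 with voom, 28 in a fit of those groups alone, 19 in that fit without SHAM replicate 3, and 15 to 137 leaving out 1 library, highest without SHAM replicate 2. The split of higher and lower calls for DN against SHAM was 260 and 172, against 347 and 411 with DESeq2 and 203 and 75 with limma; for DN-SM against SHAM it was 42 and 43, against 32 and 44 with RLE size factors. The fits of 2 groups without a SHAM library and with a block were chosen after seeing the data. Causes were not tested.

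The replicate numbers showed no pairing of libraries: same-numbered libraries correlated at -0.048 to 0.109, and 3 of 9 libraries correlated best with their own number. These are correlations of deviations from means of 3 libraries, so they cannot exclude a pairing. With the replicate block, 317 genes were called for DN against SHAM, 1 for stimulated against unstimulated injured muscle and 39 for DN-SM against SHAM, none of them a regulator. Fits of 2 groups with the replicate block called 151 genes for DN against SHAM, 818 for DN-SM against DN, and 6 for DN-SM against SHAM, again with no regulator called.

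Fitted differences close to 0 changed sign without being called: Esrra and Ppard in 8 of 24 alternatives for DN against SHAM, and Ppara in 11 of 24 for DN-SM against SHAM. Ppargc1a in DN-SM against DN stayed between 0.27 and 0.77 over 22 alternatives, with adjusted p of 0.158 to 0.659. Perm1 in DN-SM against SHAM had a lowest adjusted p of 0.0536.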

Other observations

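The balance of the PGC-1 coactivators was described after the values were seen, and so has no test. On the FPKM scale, the ratio of Ppargc1b to Ppargc1a within a library averaged 1.34 ± 0.454 in DN-SM, 2.02 ± 0.327 in DN and 2.30 ± 0.409 in SHAM (SD, n = 3 each). The lowest of the 9 ratios, 0.821, was in DN-SM replicate 2, the only library in which Ppargc1a exceeded Ppargc1b. Both genes rest on few counts, 27.2 and 63.4 per library on average.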
